A study of Caenorhabditis elegans with 32 samples.

Results

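The small RNAs assigned to the molting-family gene mltn-3 (WBGene00012199) and to the pseudogene WBGene00020632 (sequence name T20F7.5) were followed through dissected gonads of Caenorhabditis elegans. They are 2 of the 46779 features counted, and they were chosen from measured values. Among features with an adjusted p under 0.05, no overlap between libraries and a mean level of at least 5 CPM (a feature's count per 1e6 counts assigned to features in its library), they had the largest fitted gains in F15 meg mutants over wild type. Their difference between those groups is therefore described here without a test.

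The series held 32 small RNA libraries in 11 groups, with 3 libraries a group except for 2 in the F6 pptr-1 group. All worms carried a germline reporter, the mex-5 promoter driving GFP joined to histone H2B with the tbb-2 3′ end (mjIs134 on chromosome II in the labels of the wild-type and pptr-1 worms), and grew at 20 °C on Escherichia coli OP-50. The meg mutants carried meg-3(tm4259) and meg-4(ax2026). The F15 meg mutants descended from a paternal cross, a wild-type SX1263 hermaphrodite mated to a male of the mutant strain BFF40. The long-term meg mutants were BFF40 itself, kept for more than 80 generations. Meg mutant and wild-type F2 worms came from the paternal cross and from the maternal cross, a BFF40 hermaphrodite mated to an SX1263 male. SX1263 worms that had not been crossed were the wild type. RNA of these 7 groups (21 libraries) was extracted with the miRNeasy kit. A further 4 groups (11 libraries) were extracted with TRIZOL: the F6 descendants of pptr-1 and of wild-type worms treated with gfp double-stranded RNA (gfp RNAi), then pptr-1(tm3103) mutants (strain BFF39) and wild-type SX1263 worms without that ancestry. Because the extraction followed the experiment, tests stayed within one extraction, and levels across extractions are set side by side only. Cultures or animals behind separate libraries are not described in the labels, so p-values measure the spread between these libraries, which may be technical.

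In the germline of C. elegans, Argonaute proteins carry small RNAs that RNA-dependent RNA polymerases copy from transcripts of genes and pseudogenes. These small RNAs can silence or protect their target genes, and some are passed to descendants. MEG-3 and MEG-4 are disordered proteins that build P granules, the RNA-rich germ granules in which part of this machinery gathers, and PPTR-1 is a regulatory subunit of a protein phosphatase that acts on P granules. The mltn genes are named for their relation to mlt-10, a gene required for molting. A count at a gene here is a number of small RNA reads, not a level of its messenger RNA.

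In the WBcel235 annotation, mltn-3 is a protein-coding gene on the plus strand of chromosome II, from 13916340 to 13919677, with 8 exons that add up to 2247 bases. It is the first of 3 neighbouring mltn genes on that strand. The pseudogene mltn-4 begins after a gap of 877 bases, and mltn-5 begins 482 bases past mltn-4. WBGene00020632 lies on the minus strand of chromosome X, from 16845374 to 16862005, and its 9 exons add up to 4599 bases. It is 1 of 2103 annotated pseudogenes. The protein-coding gene T20F7.3 lies on the plus strand within its span and shares 0 exonic bases with it. Whether the counting used the strand, and how reads matching several places were treated, is not given in the sources used here, so counts of pseudogenes and gene families are uncertain.

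All miRNeasy libraries but one held 2684285 to 14871375 feature counts, and TRIZOL libraries held 3660141 to 12663545. The exception, the third long-term meg mutant library, held 126214 feature counts, so that 3 counts already equal 23.8 CPM there. The labels were checked against small RNAs of the mutated genes, which are not a measure of the lesion itself. At meg-3 the meg mutant libraries held 0 to 5.90 CPM, and the other miRNeasy libraries held 9.94 to 29.9 CPM, with no overlap. At meg-4 the mutants fell below wild type in F15 and below the wild-type F2 in both crosses. Against wild type the difference did not pass in maternal-cross meg F2 (log2 fold change -0.21, edgeR Benjamini-Hochberg adjusted p = 0.818). Nor did it pass in paternal-cross meg F2 (-1.01, edgeR adjusted p = 0.305) or long-term mutants (-0.88, edgeR adjusted p = 0.348). At pptr-1 the mutants fell below wild type (log2 fold change -0.99; edgeR, Benjamini-Hochberg adjusted p = 0.00528), and in F6 the value was -0.53 (adjusted p = 0.14), with libraries that did not overlap.

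Both genes were minor sources of small RNA in wild-type gonads, and in F15 meg mutants they ranked among the more heavily covered features in part of the libraries. The mltn-3 level was 814, 257 and 67.4 CPM in F15 meg mutant libraries 1, 2 and 3, against 4.25, 7.37 and 5.31 CPM in wild-type libraries 1, 2 and 3. All 3 F15 libraries lay above all 3 wild-type libraries, yet the highest F15 library was 12.1 times the lowest. The WBGene00020632 level was 16.2, 153 and 1154 CPM in the same F15 libraries, against 1.79, 3.68 and 8.00 CPM in the wild-type libraries. Here too the groups did not overlap, and the highest F15 library was 71.1 times the lowest. In this comparison 6.66% of all tested features were higher without overlap, and 2.57% were higher with an adjusted p under 0.05.

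The F15 libraries ran in opposite orders for the 2 genes. Library 1 was highest for mltn-3 and lowest for WBGene00020632, library 3 was the reverse, and library 2 lay between for both. In library 1, mltn-3 ranked 206 among the 46779 features while WBGene00020632 ranked 5749. In library 3, WBGene00020632 ranked 151 and mltn-3 ranked 1943. In wild-type gonads mltn-3 ranked between 7064 and 7716, and WBGene00020632 ranked between 7130 and 8860. Counting error was small against these differences. The 95% Wilson interval of mltn-3 was 794 to 833 CPM in F15 library 1 and 62.7 to 72.4 CPM in F15 library 3, and that of WBGene00020632 was 13.7 to 19.2 CPM in library 1 and 1134 to 1175 CPM in library 3. Intervals cover counting error only.

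**Figure D1:**
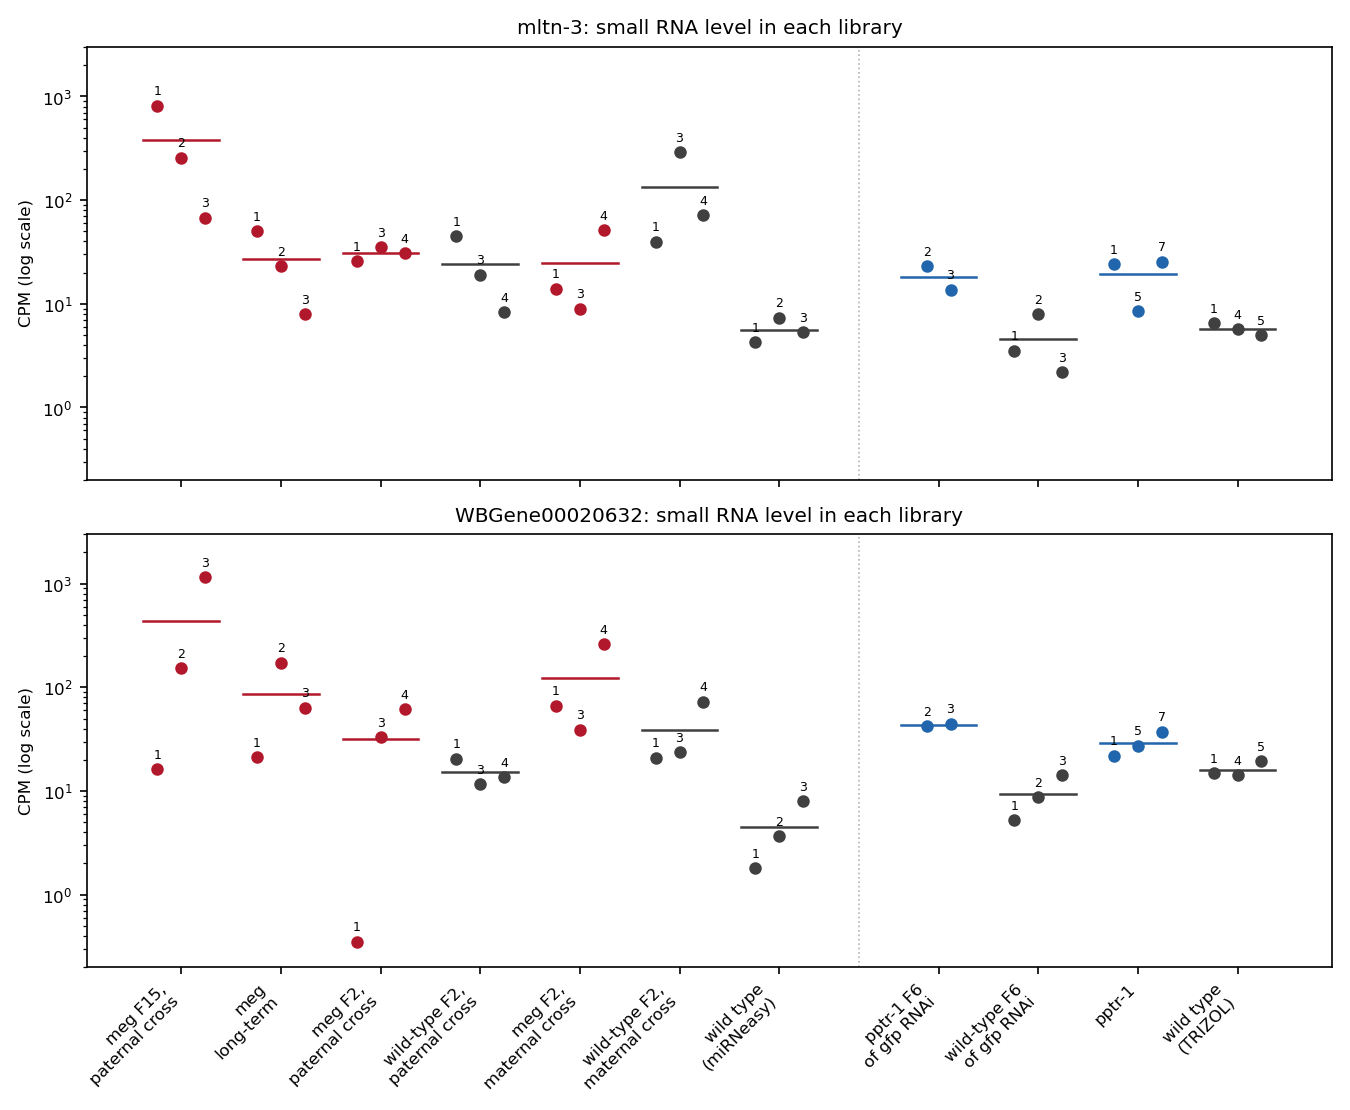
Level of mltn-3 (top) and WBGene00020632 (bottom) in each of the 32 libraries, in CPM on a log axis. Each point is a library marked with its replicate number, horizontal lines are group means, red marks meg mutants, black wild-type worms and blue pptr-1 mutants, and the dotted line parts the miRNeasy groups (left) from the TRIZOL groups (right). The 3 F15 libraries spread from 67.4 to 814 CPM for mltn-3 and from 16.2 to 1154 CPM for WBGene00020632, in opposite orders of library number.

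As means, mltn-3 stood at 379 ± 388 CPM in F15 meg mutants and 5.64 ± 1.58 CPM in wild type (SD, n = 3 each). WBGene00020632 stood at 441 ± 621 CPM in F15 meg mutants and 4.49 ± 3.18 CPM in wild type (SD, n = 3 each). The fitted log2 fold change was 6.09 (SE 0.98) for mltn-3 and 6.92 (SE 1.55) for WBGene00020632. Without F15 library 3 the pseudogene's value was 4.12, and without F15 library 1 the value of mltn-3 was 4.98. Per kilobase of exon, mltn-3 averaged 169 CPM and WBGene00020632 95.9 CPM in F15 meg mutants, against 2.51 and 0.977 CPM per kilobase in wild type. Next in order of fold change among the 203 features that met the choosing rule came B0564.2 with a log2 fold change of 5.80 (SE 0.42), at 931.8 to 2497 CPM in F15 meg mutants against 30.4 to 37.5 CPM in wild type. Then came nas-32, a member of the astacin protease family, with 5.32 (SE 0.84). Both genes were spread widely within the F15 group. The SD of the log2 CPM over F15 libraries was 1.55 for mltn-3 and 3.30 for WBGene00020632, with a median of 0.31 over the 10230 tested features. An SD at least as large as the pseudogene's was seen in 7 of those features (0.0684%), and one at least as large as that of mltn-3 in 188 (1.84%), the gene itself included. The F15 libraries took part in choosing both genes, so these shares are a description only.

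The long-term meg mutants held less than the F15 mutants of mltn-3 and overlapped with them for the pseudogene. The mltn-3 level was 49.9, 23.2 and 7.92 CPM in long-term libraries 1, 2 and 3. The third value rests on 1 count, with a Wilson interval of 1.40 to 44.9 CPM, and is under the level of 3 counts. The WBGene00020632 level was 21.2, 173.5 and 63.4 CPM in the same libraries, the third from 8 counts with an interval of 32.1 to 125 CPM. Against wild type the fitted log2 difference was 2.98 (SE 0.93) for mltn-3 and 4.69 (SE 1.44) for WBGene00020632, and the pseudogene's value was 2.92 without long-term library 2. At mltn-3 all F15 libraries lay above all long-term libraries, as for 19.6% of tested features. F15 meg mutants against long-term mutants gave a log2 difference of 3.11 (SE 0.90) for mltn-3 and 2.23 (SE 1.28) for WBGene00020632. The pseudogene's value turned to -0.52 without F15 library 3, and that of mltn-3 was 2.00 without F15 library 1. Against paternal-cross meg F2, F15 meg mutants had a log2 difference of 3.49 (SE 0.85) for mltn-3 and 4.08 (SE 1.34) for WBGene00020632. The groups overlapped for the pseudogene and not for mltn-3, and 4.45% of tested features were higher without overlap there. With 1 library left out, the lowest values were 2.38 for mltn-3 and 1.39 for the pseudogene. These values share the libraries that chose the genes and have no test.

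Small RNAs at mltn-3 were above every uncrossed wild-type library in all other miRNeasy libraries, F2 wild-type worms included. The lowest of those 18 libraries held 7.92 CPM and the highest wild-type library 7.37 CPM, while 0.587% of tested features showed such a separation. That lowest library was the long-term library with 1 count, and the next lowest held 8.35 CPM. For WBGene00020632 an exception was meg F2 library 1 of the paternal cross, at 0.352 CPM from 2 counts (Wilson interval 0.0965 to 1.28 CPM), against 1.79 CPM in the lowest wild-type library. Because the wild-type libraries took part in choosing the genes, these separations are a description.

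In the F2 of the paternal cross, mutants and wild types were not told apart at either gene. The mltn-3 level was 25.9, 35.0 and 30.9 CPM in meg F2 libraries 1, 3 and 4, against 44.9, 19.0 and 8.35 CPM in wild-type F2 libraries 1, 3 and 4. The wild-type values lay on both sides of the mutant values, and the log2 fold change was 0.35 (SE 0.81; edgeR quasi-likelihood test, Benjamini-Hochberg adjusted p = 0.948). WBGene00020632 had 0.352, 33.2 and 61.7 CPM in the meg F2 libraries, against 20.5, 11.6 and 13.5 CPM in the wild-type F2 libraries. Mutant library 1 was the lowest of the 6 and mutant libraries 3 and 4 the highest, a 175-fold range within the mutant group. The log2 fold change was 1.04 (SE 1.28; edgeR, Benjamini-Hochberg adjusted p = 0.872). Replicate numbers pair these groups. When each number was fitted as a block shared by all miRNeasy groups, the value was -0.06, so no direction is given. In this comparison 2.28% of tested features passed an adjusted p under 0.05.

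In the F2 of the maternal cross the fitted differences of the 2 genes had opposite signs, and neither passed. The mltn-3 level was 14.0, 8.96 and 51.2 CPM in meg F2 libraries 1, 3 and 4, against 39.5, 289 and 71.5 CPM in wild-type F2 libraries 1, 3 and 4. Mutant library 4 lay above wild-type library 1, so the groups overlapped. Replicate numbers pair them, and within each of the 3 pairs the mutant was lower. The log2 fold change was -2.33 (SE 0.82; edgeR, Benjamini-Hochberg adjusted p = 0.179), and -1.04 without wild-type F2 library 3. WBGene00020632 had 66.5, 38.9 and 260.2 CPM in the meg F2 libraries, against 20.9, 23.6 and 72.7 CPM in the wild-type F2 libraries. Here the mutant was higher within each of the 3 pairs. How many of all tested features kept a single direction over the 3 pairs was not counted, so these orders are a description only. The log2 fold change was 1.72 (SE 1.22; edgeR, Benjamini-Hochberg adjusted p = 0.773), and 0.47 without mutant library 4, the highest of the 6. With each replicate number as a block shared by all miRNeasy groups, the values were -2.40 for mltn-3 and 1.74 for WBGene00020632 (edgeR, Benjamini-Hochberg adjusted p = 0.285 and 0.733). No fit of these pairs alone was made. In this comparison 2.83% of tested features passed. The genotype effect was also compared between the crosses. Maternal minus paternal, the difference of the 2 effects was -2.68 (SE 1.15) for mltn-3 and 0.68 (SE 1.75) for WBGene00020632 on the log2 scale (edgeR, Benjamini-Hochberg adjusted p = 0.995 and 1), in a test that 0.0196% of features passed.

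The direction of the cross was set against each genotype in turn. In wild-type F2 worms, all maternal-cross libraries lay above 2 of the 3 paternal-cross libraries for mltn-3, with a log2 difference of 2.67 (SE 0.83; edgeR, Benjamini-Hochberg adjusted p = 0.0895). That value depended on single libraries: it was 1.38 without maternal-cross library 3, and 3.12 with an adjusted p of 0.0445 without maternal-cross library 1. Library 3 was also apart from the other maternal-cross wild types at meg-4, with 28.4 CPM against 179 and 237 CPM, and its part in the result was not tested. WBGene00020632 was higher without overlap in the maternal cross, as were 7.48% of tested features, with a log2 difference of 1.58 (SE 1.27; edgeR, Benjamini-Hochberg adjusted p = 0.669), and 0.69 without maternal-cross library 4. In meg F2 worms the maternal minus paternal difference was -0.01 (SE 0.81) for mltn-3 and 2.26 (SE 1.26) for WBGene00020632 on the log2 scale (edgeR, Benjamini-Hochberg adjusted p = 0.999 and 0.363). Without maternal-cross meg F2 library 4 the values were -1.17 for mltn-3 and 1.04 for the pseudogene. The tests passed 3.72% of features between the wild-type F2 groups and 5.07% between the mutant F2 groups.

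Long-term mutants were tested against the meg F2 of the maternal cross, a group with the same genotype that descended from a BFF40 hermaphrodite. The log2 difference was 0.39 (SE 0.86) for mltn-3 and -0.41 (SE 1.23) for WBGene00020632 (edgeR, Benjamini-Hochberg adjusted p = 0.972 and 0.992). Standard errors of this size leave room for differences of several-fold in either direction. In this comparison 0.205% of tested features passed.

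In the TRIZOL libraries, which played no part in choosing the genes, all pptr-1 libraries lay above all wild-type libraries at both genes, and the difference passed for mltn-3. The mltn-3 level was 24.0, 8.47 and 25.6 CPM in pptr-1 libraries 1, 5 and 7, against 6.47, 5.69 and 5.00 CPM in wild-type libraries 1, 4 and 5. Such a separation in that direction was seen in 12.4% of tested features. The mltn-3 level rose, with a log2 fold change of 1.85 (SE 0.48; edgeR, Benjamini-Hochberg adjusted p = 0.0398), in a test that 4.14% of features passed in that direction. The call was lost without any one of the 3 wild-type libraries, pptr-1 library 1 or pptr-1 library 7, with adjusted p-values of 0.0724 to 0.132, and it held without pptr-1 library 5 (adjusted p = 0.00885). WBGene00020632 had 22.0, 27.4 and 37.4 CPM in the pptr-1 libraries, against 14.8, 14.1 and 19.4 CPM in the wild-type libraries. It had a log2 fold change of 0.91 (SE 0.28; edgeR, Benjamini-Hochberg adjusted p = 0.0807). In DESeq2 that difference passed, with an adjusted p of 0.0357.

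In the F6 descendants of gfp RNAi the same genotypes differed in the same direction. The mltn-3 level was 22.9 and 13.7 CPM in pptr-1 F6 libraries 2 and 3, against 3.53, 7.93 and 2.20 CPM in wild-type F6 libraries 1, 2 and 3. The groups did not overlap, and the log2 fold change was 1.87 (SE 0.56; edgeR, Benjamini-Hochberg adjusted p = 0.0624). WBGene00020632 had 42.1 and 44.8 CPM in the pptr-1 F6 libraries, against 5.21, 8.72 and 14.2 CPM in the wild-type F6 libraries. It rose, with no overlap and a log2 fold change of 2.06 (SE 0.32; edgeR, Benjamini-Hochberg adjusted p = 0.00291). The call held in all 11 alternative settings and omissions of a library, with log2 fold changes of 1.75 to 2.50 and adjusted p-values of at most 0.0316. In this comparison 4.06% of tested features passed in that direction, and 31.1% were higher without overlap.

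Neither gene's pptr-1 effect was shown to depend on the RNAi ancestry. The effect in F6 descendants minus the effect in worms without that ancestry was 0.02 (SE 0.71) for mltn-3 and 1.14 (SE 0.43) for WBGene00020632 on the log2 scale (edgeR, Benjamini-Hochberg adjusted p = 0.998 and 0.768). No feature (0%) passed this test in edgeR; in DESeq2 46 did, and 667 had an unadjusted edgeR p under 0.05. That unadjusted p was 0.0206 for WBGene00020632 and 0.979 for mltn-3. Wild-type F6 against wild type gave log2 differences of -0.27 (SE 0.51) for mltn-3 and -0.69 (SE 0.30) for WBGene00020632 (edgeR, Benjamini-Hochberg adjusted p = 0.929 and 0.62). For pptr-1 F6 against pptr-1 they were -0.25 (SE 0.53) and 0.45 (SE 0.31; adjusted p = 0.93 and 0.727). Each of these last comparisons passed 0.0644% of features. The pseudogene was higher without overlap in pptr-1 F6 than in pptr-1, as were 21.7% of features. In all, each gene entered 11 tests and passed 1 of them, while 5 tests of mltn-3 and 4 of WBGene00020632 had an unadjusted p under 0.05. Such unadjusted edgeR p-values were common among all features. They were held by 471 of 10230 features in the difference of F2 genotype effects, the fewest of the 11 tests. The most were 2389 of 10873, in pptr-1 F6 against wild-type F6, and pptr-1 against wild type had 2160 of 10873.

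**Figure D2:**
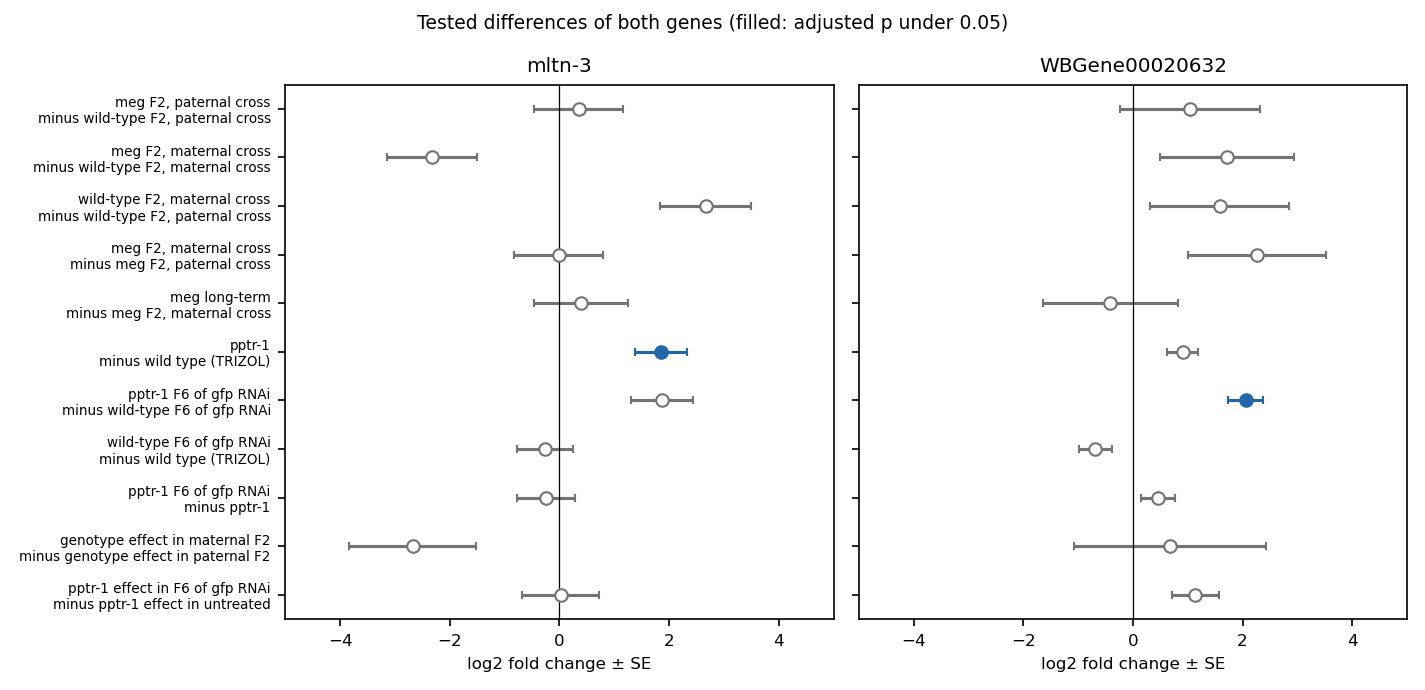
Log2 fold change with its standard error for the 11 tested comparisons of mltn-3 (left) and WBGene00020632 (right), the group named first minus the group named second. Filled points have a Benjamini-Hochberg adjusted p under 0.05, which holds for mltn-3 in pptr-1 against wild type (1.85) and for WBGene00020632 in pptr-1 F6 against wild-type F6 (2.06).

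Ordered by group mean, mltn-3 was highest in F15 meg mutants, then in maternal-cross wild-type F2 (133 ± 136 CPM), paternal-cross meg F2 (30.6 ± 4.57 CPM), long-term mutants (27.0 ± 21.3 CPM), maternal-cross meg F2 (24.7 ± 23.1 CPM) and paternal-cross wild-type F2 (24.1 ± 18.8 CPM). The pptr-1 (19.4 ± 9.46 CPM) and pptr-1 F6 (18.3 ± 6.54 CPM) groups followed. Wild type stood at 5.72 ± 0.732 CPM with TRIZOL and at 5.64 ± 1.58 CPM with miRNeasy, and wild-type F6 came last with 4.55 ± 3.00 CPM (SD, n = 3, or 2 for pptr-1 F6). The first and second groups in this order overlapped library by library, as did all neighbours from paternal-cross meg F2 down to pptr-1 F6 and the last 3 groups. WBGene00020632 was highest in F15 meg mutants, then in maternal-cross meg F2 (122 ± 121 CPM), long-term mutants (86.0 ± 78.6 CPM), pptr-1 F6 (43.4 ± 1.90 CPM), maternal-cross wild-type F2 (39.1 ± 29.1 CPM), paternal-cross meg F2 (31.8 ± 30.7 CPM) and pptr-1 (28.9 ± 7.81 CPM). TRIZOL wild type (16.1 ± 2.86 CPM), paternal-cross wild-type F2 (15.2 ± 4.66 CPM) and wild-type F6 (9.38 ± 4.53 CPM) stood below, and miRNeasy wild type came last. For the pseudogene, all neighbours from F15 meg mutants down to pptr-1 overlapped, as did the last 4 groups.

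The 2 genes were positively but loosely correlated in the miRNeasy libraries. For scale, mltn-5, with an r of 0.38 with mltn-3 there, ranked 413 among the 10230 tested features by that r. Pearson's r of their log2 CPM was 0.37 over the 21 miRNeasy libraries, 0.41 over the 18 without F15, and 0.71 over the 11 TRIZOL libraries, where each point shares its library's depth and composition. High libraries of the 2 genes were different ones: outside the F15 group, mltn-3 peaked in maternal-cross wild-type F2 library 3 (289 CPM, rank 506) and WBGene00020632 in maternal-cross meg F2 library 4 (260.2 CPM, rank 470). In F2 meg mutants of the paternal cross the SD of the log2 CPM was 0.21 for mltn-3 and 3.46 for the pseudogene, with a median of 0.34 over tested features. At the other end, the 2 pptr-1 F6 libraries differed at WBGene00020632 with an SD of 0.05 on that scale.

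**Figure D3:**
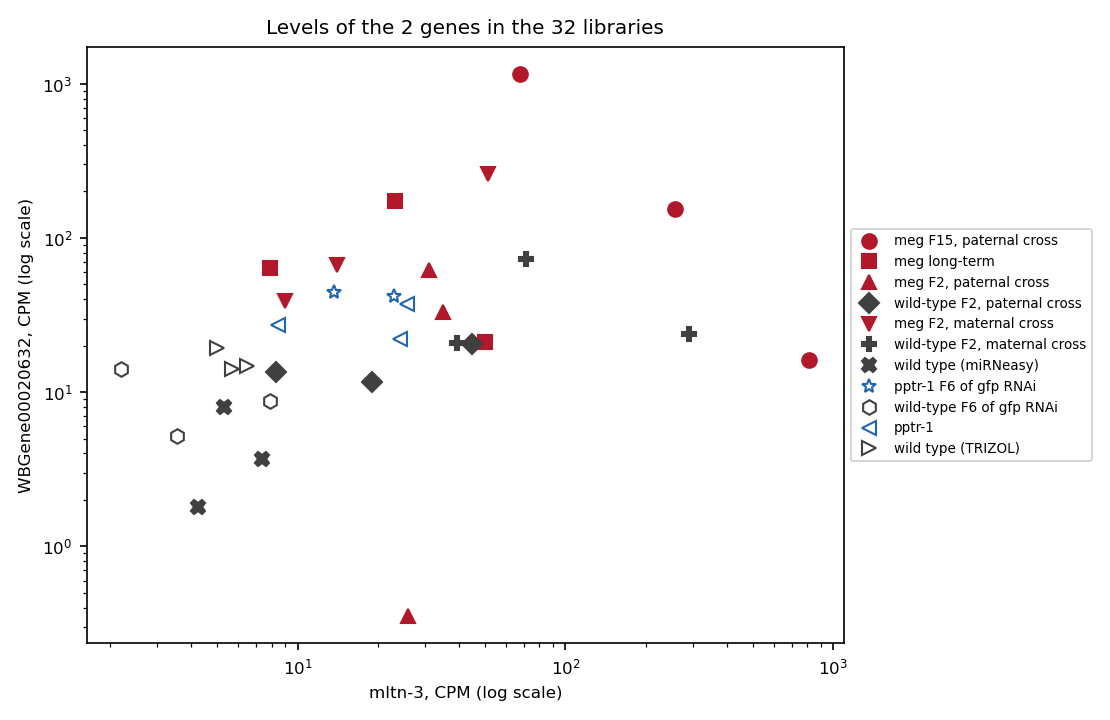
Level of mltn-3 (horizontal axis) against WBGene00020632 (vertical axis) in the 32 libraries, in CPM on log axes, with a marker shape for each group and filled markers for miRNeasy and open ones for TRIZOL. The F15 libraries lie at the right and upper edges, at 814 CPM of mltn-3 with 16.2 CPM of the pseudogene in one and 67.4 with 1154 CPM in another.

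Downstream of mltn-3 the neighbouring genes carried few small RNAs. Its downstream neighbour mltn-4 had 11.6, 4.20 and 2.56 CPM in F15 meg mutant libraries 1, 2 and 3, against 0.447, 0 and 0.134 CPM in the wild-type libraries. In the F15 libraries these counts were 1.42%, 1.63% and 3.8% of the mltn-3 counts, and they kept the order of mltn-3. The gene mltn-5 had 21.3, 4.56 and 0.64 CPM in the F15 libraries, against 4.25, 0.167 and 0.134 CPM in the wild-type libraries, again in the order of mltn-3 in F15. In wild-type library 1 the count of mltn-5 equalled that of mltn-3, at 19 each. Upstream, citk-1, which ends 1085 bases before mltn-3, ran the other way, with 161, 168 and 62.8 CPM in F15 meg mutants against 325, 297 and 281 CPM in wild type, and a log2 fold change of -1.12 (SE 0.23). In wild-type F2 worms citk-1 fell in the maternal cross against the paternal cross (log2 fold change -1.02, SE 0.23; edgeR, Benjamini-Hochberg adjusted p = 0.0121), while the fitted mltn-3 difference there was 2.67. In pptr-1 mutants citk-1 rose, as mltn-3 did (log2 fold change 0.62, SE 0.15; edgeR, Benjamini-Hochberg adjusted p = 0.0328). The r of citk-1 with mltn-3 was -0.30 over 21 miRNeasy libraries and 0.80 over 11 TRIZOL libraries. In wild-type gonads citk-1 itself was more heavily covered than mltn-3, per kilobase of exon too.

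Of the genes around WBGene00020632, T20F7.3, within its span, and F41G4.8 carried few small RNAs, and aakg-2 carried more in some groups. Counts are per annotated feature, so stretches between genes were not examined. T20F7.3 had at most 0.621 CPM in any library, and F41G4.8, the nearest protein-coding gene on the other side, had at most 0.319 CPM. The gene aakg-2, which encodes a subunit of AMP-activated protein kinase, lies on the same minus strand, 4040 bases past the pseudogene's higher coordinate. It had 3.69, 11.7 and 4.34 CPM in pptr-1 mutants, against 0.706, 0.948 and 1.36 CPM in TRIZOL wild type, and rose (log2 fold change 2.76, SE 0.50; edgeR, Benjamini-Hochberg adjusted p = 0.00605). It also rose in pptr-1 F6, with 17.5 and 8.32 CPM against 1.12, 0.793 and 1.18 CPM in wild-type F6 (log2 fold change 3.47, SE 0.57; edgeR, Benjamini-Hochberg adjusted p = 0.00364). In wild-type F2 worms aakg-2 had 46.6, 2.06 and 57.5 CPM in maternal-cross libraries 1, 3 and 4, against 1.16, 1.43 and 0.736 CPM in paternal-cross libraries 1, 3 and 4, and rose (log2 fold change 5.12, SE 0.87; edgeR, Benjamini-Hochberg adjusted p = 0.00139). In F15 meg mutants aakg-2 held 6.02, 3.72 and 2.01 CPM, the opposite order to the pseudogene, against 0.895, 0.502 and 1.14 CPM in wild type. The r of aakg-2 with WBGene00020632 was 0.29 over 21 miRNeasy libraries and 0.80 over 11 TRIZOL libraries.

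The rest of the mlt-10 related family did not share the pattern of mltn-3 as a group. Of 13 other members, 5 had enough counts to be tested in each extraction: mlt-10, mltn-4, mltn-7 and mltn-8 in both, mltn-5 with miRNeasy and mltn-6 with TRIZOL. In F15 meg mutants against wild type, mltn-4 had a log2 fold change of 5.08 (SE 1.42) and passed, none passed in the lower direction, and the family's median was -0.14. Over all features 2.57% passed as higher and 6.21% as lower there, with a median of 0.05. None of the 5 tested with TRIZOL rose in either pptr-1 comparison. The family member mltn-8 fell in pptr-1 F6, with 0.273 and 3.18 CPM against 8.18, 16.3 and 5.41 CPM in wild-type F6 (log2 fold change -2.62, SE 0.72; edgeR, Benjamini-Hochberg adjusted p = 0.0448), in a comparison where 3.68% of all features fell. No family member passed as lower than wild type in paternal-cross meg F2. In maternal-cross meg F2 and in long-term mutants mltn-7 fell below wild type, the side opposite to mltn-3. It had 3.42, 6.37 and 2.68 CPM in maternal-cross meg F2 libraries 1, 3 and 4, against 56.1, 53.6 and 40.3 CPM in wild type, and fell (log2 fold change -3.10, SE 0.56; edgeR, Benjamini-Hochberg adjusted p = 0.000539). It fell likewise in maternal-cross wild-type F2 (log2 fold change -2.39, SE 0.53; edgeR, adjusted p = 0.00332) and in long-term mutants (-2.14, SE 0.61; edgeR, adjusted p = 0.0149). The gene mlt-10 also fell in maternal-cross meg F2 (log2 fold change -1.32, SE 0.49, edgeR Benjamini-Hochberg adjusted p = 0.0436). Against wild type, 18% of all tested features fell in maternal-cross meg F2, 14.8% in maternal-cross wild-type F2 and 15.5% in long-term mutants. Over the 21 miRNeasy libraries the r of mltn-3 was 0.75 with mltn-4, 0.38 with mltn-5, 0.08 with mltn-8 and -0.28 with mltn-7.

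Of 21 other molting genes listed, 8 could be tested. The astacin protease gene nas-36, whose product is needed for shedding the old cuticle, rose in pptr-1 mutants (log2 fold change 2.15, SE 0.30; edgeR, Benjamini-Hochberg adjusted p = 0.0012) and in pptr-1 F6 (1.70, SE 0.32; adjusted p = 0.00829). It fell in meg F2 against wild-type F2 of the maternal cross (log2 fold change -2.03, SE 0.43; edgeR, Benjamini-Hochberg adjusted p = 0.0123), the comparison in which mltn-3 had -2.33 without passing. The gene mlt-8 fell in pptr-1 F6 (log2 fold change -1.50, SE 0.19; edgeR, Benjamini-Hochberg adjusted p = 0.000754). Over all features, 4.14% rose in pptr-1 mutants, 4.06% rose and 3.68% fell in pptr-1 F6, and 2.43% fell in that maternal-cross comparison. No other gene of the list passed in the comparisons of pptr-1 with wild type or of meg F2 with wild-type F2. The list's median log2 fold change was 0.59 in pptr-1 mutants and 0.12 in pptr-1 F6.

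Annotated pseudogenes other than WBGene00020632 were set beside it. In pptr-1 mutants 67 of the 594 tested rose (11.3%) and 10 fell (1.68%), where 4.14% of all features rose and 2.35% fell. In pptr-1 F6 59 rose (9.93%) and 19 fell (3.2%), where 4.06% of all features rose and 3.68% fell. Their median log2 fold change was 0.25 in pptr-1 mutants and 0.13 in pptr-1 F6. In F15 meg mutants against wild type 26 of 541 pseudogenes were higher (4.81%) and 56 lower (10.4%), with a median of -0.15. All features tilted the same way there, with 2.57% higher and 6.21% lower, so both shares of the pseudogenes were above the background. No test of the class was made.

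Features whose log2 CPM followed each gene most closely over the 21 miRNeasy libraries were looked for among all those tested. For mltn-3 they were mltn-4 (r = 0.75), sph-1 (0.67), T10D4.6 (0.67), E02H9.3 (0.65) and the pseudogene Y32G9A.13 (0.65). Of these, mltn-4, sph-1 and E02H9.3 had the F15 order of mltn-3. Few reads lay at sph-1, with 18, 13 and 8 counts in F15 libraries 1, 2 and 3. Outside the F15 group few lay at mltn-4 either, with 2, 0 and 2 counts in wild-type libraries 1, 2 and 3. Its highest count in the other miRNeasy groups was 34, in maternal-cross wild-type F2 library 3. Without the F15 libraries the r of mltn-4 with mltn-3 was 0.60. E02H9.3 had 881, 702 and 74.9 CPM in those libraries, against 38.9, 40.3 and 62.3 CPM in wild type. Its r with mltn-3 was 0.26 without the F15 libraries and 0.90 over the TRIZOL libraries, where it had 288 to 425 CPM in pptr-1 mutants against 61.9 to 76.4 CPM in wild type. Over the TRIZOL libraries the r of mltn-4 was 0.09.

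For WBGene00020632 the closest features were C28A5.1 (r = 0.82), the non-coding RNA gene F22H10.10 (0.79), ric-7 (0.78), cox-18 (0.77) and attf-6 (0.75). F22H10.10 lies on the same chromosome, 147075 bases before the pseudogene. It had 33.4, 206 and 650 CPM in F15 libraries 1, 2 and 3, the pseudogene's order, against 8.50, 10.0 and 35.5 CPM in wild type. Its r was 0.71 without the F15 libraries and 0.87 over the TRIZOL libraries. Scaled by total counts instead, F22H10.10 kept an r of 0.77. Those of C28A5.1, ric-7, cox-18 and attf-6 were then 0.54, 0.09, 0.42 and 0.47. Of the 5 closest features, 1 stayed among the closest 5 with that scaling, and 2 stayed when the shallowest library was left out. Over the TRIZOL libraries cox-18 and attf-6 had r of -0.48 and -0.76. These correlations describe libraries that share depth and extraction.

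**Figure D4:**
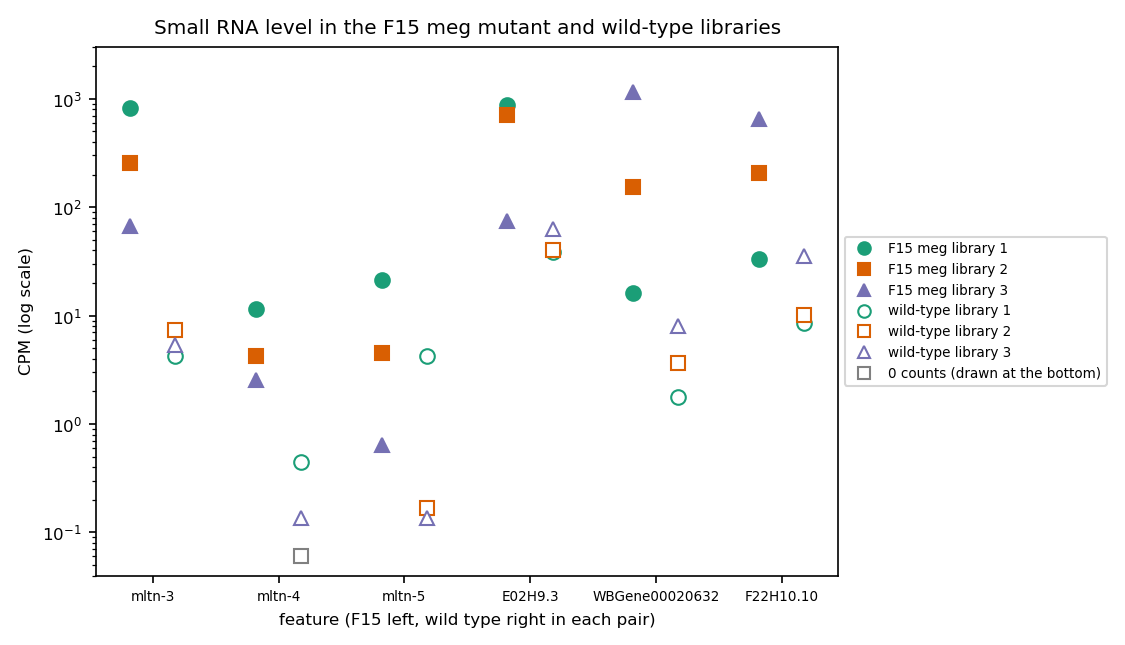
Level of 6 features in the F15 meg mutant libraries (filled, left in each pair) and wild-type libraries (open, right), in CPM on a log axis; the marker shape is the library number and grey markers at the bottom stand for 0 counts. mltn-3, mltn-4, mltn-5 and E02H9.3 are highest in F15 library 1, and WBGene00020632 and F22H10.10 in F15 library 3.

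Samples were whole dissected gonads, so fewer cells of a type and less small RNA per cell cannot be told apart.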

How the data were processed

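Small RNA libraries were prepared from dissected gonads with the NEBNext Multiplex Small RNA set after miRNeasy or TRIZOL extraction, per the labels' protocols. The authors deposited whole-number counts of reads per feature for each library, with no normalization. The submitters' processing notes name the ce11 build, cutadapt, FastQC, HTSeq and DESeq2. The aligner, strand setting, handling of reads with several matches and any treatment of RNA ends are not given in the sources used here. Closing tallies, kept out of library sizes and tests, left 53.0% to 61.8% of reads assigned to features. Positions are from the WBcel235 annotation (Ensembl). Gene identifiers there matched 46603 of 46779 features.

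CPM is the count per 1e6 feature counts (the text gives mean ± SD). Each extraction was fitted with edgeR 4.0.16 (R 4.3.3, limma 3.58.1, the data.table package, version 1.17.8): features reaching 10 counts in 3 or more libraries (10230 miRNeasy, 10873 TRIZOL), trimmed-mean scaling, 1 mean per group, no replicate block, two-sided quasi-likelihood F test, Benjamini-Hochberg over all tested features, threshold 0.05. The script was tested on simulated counts. DESeq2 1.42.0, other scalings, no filter, a replicate block over all groups of an extraction, only the compared groups and omitted libraries were alternatives. Leaving the shallowest library out of every miRNeasy fit, and repeating all alternatives for the descriptions and list counts, were chosen after seeing the data. Correlations used log2 CPM with a prior count of 2. Python 3.11.15, numpy 2.4.6, pandas 2.3.3, scipy 1.17.1 and matplotlib 3.10.9 were used for the rest.

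Both genes and all lists were chosen with earlier results of these data known. Named were both genes, genes overlapping or next to them, the mlt-10 related family, a molting list, the 5 features with the highest r to each, and meg-3, meg-4 and pptr-1. B0564.2 and nas-32 mark the edge of the choosing rule. Replicate numbers in the titles were taken to pair libraries where groups shared at least 3 numbers and every same-numbered pair's deviations correlated above 0.1. This held for meg F2 against wild-type F2 (r 0.19 to 0.30 in the paternal and 0.16 to 0.19 in the maternal cross) and F15 against wild type (0.11 to 0.18). In pptr-1 against TRIZOL wild type only 2 numbers were shared (r 0.27 and 0.35). There 4 of 4 libraries were closest to their own number, so pairing is possible but was not taken up. Wild-type F6 and TRIZOL wild type shared 1 number (r 0.27). Replicate pairs differed by 1.7 to 127 times what sampling alone gives (chi-square divided by its degrees of freedom, 31 pairs), so none was counted as 1 library.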

Additional observations from a re-analysis of the deposited data

How the results depend on the processing

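Over 290 alternatives of the 22 tested differences, 244 kept direction and side of the threshold, 6 lost the threshold, 16 newly passed it and 24 turned direction. Counting depth limits the third long-term library most. Values are log2 fold changes, with adjusted p in brackets, and the cause of each change was not tested. Without the filter on low counts, standard errors were smaller and these passed: for WBGene00020632, meg F2 against wild-type F2 1.00 (0.00354) in the paternal cross and 1.69 (3.47e-10) in the maternal cross, maternal against paternal wild-type F2 1.61 (1.46e-08) and meg F2 2.29 (5.55e-18), and pptr-1 against wild type 0.84 (0.00685); for mltn-3, meg F2 against wild-type F2 of the maternal cross -2.36 (6.8e-19), maternal against paternal wild-type F2 2.70 (2.67e-24), pptr-1 F6 against wild-type F6 1.81 (1.2e-05) and the difference of F2 genotype effects -2.70 (9.6e-12). For mltn-3, pptr-1 F6 against wild-type F6 also passed with DESeq2 at 1.87 (0.0104), total-count scaling at 2.02 (0.0329), the compared groups alone at 1.89 (0.0442) and the replicate block at 1.84 (0.0223), and pptr-1 against wild type missed with the compared groups alone at 1.82 (0.0519). With DESeq2, WBGene00020632 passed in pptr-1 against wild type at 0.88 (0.0357).

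With the replicate block, direction turned for WBGene00020632 in paternal-cross F2 (-0.06), long-term against maternal-cross meg F2 (0.07) and pptr-1 F6 against pptr-1 (-0.41), and for mltn-3 in maternal against paternal meg F2 (0.00). Where numbers pair libraries, the block, which was shared by all groups of an extraction, changed no call. That last difference was also 0.03 with relative log expression scaling and 0.01 with DESeq2. Leaving out 1 library at a time gave, for mltn-3, -0.06 to 1.15 in paternal-cross F2, 1.38 to 3.47 for maternal against paternal wild-type F2, -1.17 to 0.40 for meg F2, -0.24 to 1.56 for long-term against maternal-cross meg F2, 1.56 to 2.20 for pptr-1 against wild type, 1.44 to 2.54 for pptr-1 F6 against wild-type F6 (passing without wild-type F6 library 2, adjusted p = 0.0322), -0.94 to 0.05 for wild-type F6 against wild type, -0.68 to 0.11 for pptr-1 F6 against pptr-1 and -0.41 to 0.69 for the difference of pptr-1 effects. For WBGene00020632 it gave -2.14 to 0.86 for long-term against maternal-cross meg F2 and -0.53 to 1.59 for the difference of F2 genotype effects. Where a lone library was left in a group, it was assumed to vary like the others. The compared groups alone gave no separate value for the difference of pptr-1 effects, which uses all 4 groups.

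Counts of all features passing moved by over 1.5 times. In paternal-cross F2 they were 233, against 750 without the filter, 352 with DESeq2 and 116 to 202 with a library left out. In maternal-cross F2 they were 289, against 890, 438 and 98 with the compared groups alone. Between crosses they were 381 in wild-type F2 against 1000 without the filter, and 519 in meg F2 against 1250, 797 with total-count scaling and 223 to 522 with a library left out. Long-term against maternal-cross meg F2 gave 21, against 358, 91 with DESeq2, 13 with the block and 3 to 20 with a library left out. For pptr-1 against wild type it was 705, against 1377, 1068 and 425 to 615, and in F6 841, against 1688, 1285 and 186 to 618. Wild-type F6 against wild type gave 7, against 293, 77, 22 with the block and 2 with the compared groups alone. For pptr-1 F6 against pptr-1 it was 7, against 267, 122 and 60 with the block. The F2 difference of effects gave 2, against 264, 25, 1 with total-count scaling and 0 with the compared groups alone, and that of pptr-1 gave 0, against 235 and 46.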
